A study of Mus musculus with 6 samples.

Results

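The carboxylesterase 2 genes Ces2e, Ces2f and Ces2g are neighboring paralogs on mouse chromosome 8, and they are described here in HL-1 cells with and without knockdown of the long noncoding RNA Malat1. The 3 genes were taken by name from a table of 21269 genes. They had been picked because they rose together after Malat1 knockdown in these same libraries, so the size of their rise is the reason for their choice and is given as a description, without a test. HL-1 is an immortalized line of contractile mouse atrial cardiomyocytes kept in Claycomb medium, so all libraries come from 1 cell line. Cells seeded 24 hours earlier were transfected with 50 nM of a locked nucleic acid gapmer, a short DNA strand with modified ends that pairs with an RNA and lets RNase H cut it. LNA Control received a control gapmer and LNA Malat1 a gapmer against Malat1, each for 48 hours, with 3 RNA-seq libraries per group.

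Carboxylesterases of the second family are serine hydrolases held in the lumen of the endoplasmic reticulum, where a carboxy-terminal retention signal is read by KDEL receptors. They cleave ester and amide bonds in drugs, pesticides and other foreign compounds, and several of them also hydrolyze neutral lipids such as triacylglycerol and diacylglycerol. Liver, intestine and kidney are the tissues best known for them, and the mouse carries a tandem array of such genes where humans have a single CES2 gene.

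Ces2e (ENSMUSG00000031886) occupies chr8:104926260-104934672, Ces2f (ENSMUSG00000062826) chr8:104947356-104960047, and Ces2g (ENSMUSG00000031877) chr8:104961718-104969537, all on the plus strand of mm10. They follow one another within 43.3 kb. A gap of 12.68 kb separates Ces2e from Ces2f, while Ces2f ends only 1.67 kb before Ces2g begins. The coding sequences are 1677, 1683 and 1680 bases long and are spread over 12, 13 and 12 exons. They were 80.3% identical between Ces2e and Ces2f, 82.9% between Ces2e and Ces2g, and 80.5% between Ces2f and Ces2g.

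The stretch where the 3 genes are most alike shows how close the copies can be for a sequencing read. It covers 75 coding bases of exon 2, at chr8:104927102-104927176 in Ces2e, chr8:104948144-104948218 in Ces2f and chr8:104962570-104962644 in Ces2g. The capital marks the single base that is not the same in all 3 genes, and Ces2e and Ces2g are identical throughout.
Ces2e: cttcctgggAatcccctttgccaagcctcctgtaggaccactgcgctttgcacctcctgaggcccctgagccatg
Ces2f: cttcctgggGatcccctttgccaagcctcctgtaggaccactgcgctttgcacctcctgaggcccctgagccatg
Ces2g: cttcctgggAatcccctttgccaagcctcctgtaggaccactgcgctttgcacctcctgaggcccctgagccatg

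Such stretches are short. Of all windows of 75 bases in the annotated transcripts, 99.7% in Ces2e, 99.7% in Ces2f and 99.4% in Ces2g occurred in no other gene. With windows of 36 bases the shares were still 93.6%, 95.3% and 92.8%. The authors left out reads that aligned to several regions, so a read lying wholly in a shared window was not counted for any of the genes.

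The 250 bases before each start are shown because the genes moved together. They are RefSeq sequences on GRCm38.p6, plus strand, at chr8:104926010-104926259 for Ces2e, chr8:104947106-104947355 for Ces2f and chr8:104961468-104961717 for Ces2g. Capitals mark the letters ACTTTGCC, which all 3 hold.
Ces2e: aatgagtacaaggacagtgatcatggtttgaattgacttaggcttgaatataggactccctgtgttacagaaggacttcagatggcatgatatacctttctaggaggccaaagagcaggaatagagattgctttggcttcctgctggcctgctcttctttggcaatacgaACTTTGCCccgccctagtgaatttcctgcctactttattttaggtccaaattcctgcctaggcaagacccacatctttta
Ces2f: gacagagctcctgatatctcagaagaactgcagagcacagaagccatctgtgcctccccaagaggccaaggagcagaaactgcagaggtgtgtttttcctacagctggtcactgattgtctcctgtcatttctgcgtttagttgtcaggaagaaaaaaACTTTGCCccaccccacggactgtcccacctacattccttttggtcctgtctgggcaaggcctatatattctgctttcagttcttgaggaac
Ces2g: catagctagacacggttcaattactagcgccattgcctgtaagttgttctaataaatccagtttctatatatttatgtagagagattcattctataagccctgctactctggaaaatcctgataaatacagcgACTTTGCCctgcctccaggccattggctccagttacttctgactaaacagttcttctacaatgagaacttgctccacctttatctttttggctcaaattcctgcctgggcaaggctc

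The shared letters lie at -80 to -73 in Ces2e, -92 to -85 in Ces2f and -117 to -110 in Ces2g, counted back from the base before the start. They were picked after the promoters had been seen. Of 32851 mouse promoters of this length, 263 (0.801%) hold ACTTTGCC on either strand, among them that of the paralog Ces2a at -70 to -63. Between the promoters, identity was 70.6% over 201 aligned bases for Ces2e and Ces2f, 60.0% over 230 for Ces2e and Ces2g, and 59.3% over 216 for Ces2f and Ces2g. Base composition was alike, with a GC content of 44.4% in Ces2e, 49.2% in Ces2f and 42.0% in Ces2g.

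Other letters searched on both strands were shared less. The GC box GGGCGG, present in 32.7% of all promoters, occurred in Ces2e alone of the 3, at -72 to -67 on the minus strand, next to the shared letters without overlapping them. The CCAAT box (CCAAT, 33.8%) occurred in Ces2g alone, at -96 to -92 on the minus strand. TATAAA (12.4%), the nuclear receptor motif AGGTCA (14.0%), the E-box CACGTG (6.02%), the AP-1 site TGACTCA (4.46%) and the antioxidant response element TGACNNNGC (10.2%) matched in none of the 3 windows. Each match or missing match describes letters only. Genes with the shared letters were called higher about as often as other genes. Leaving out Ces2e, Ces2f and Ces2g, 99 tested genes hold them before their start, and 7 of these (7.07%) were called higher and 2 lower, with a median log2 fold change of 0.02. Among all 10589 tested genes with a promoter sequence, 7.05% were called higher, with a median of -0.01.

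The values of the table are normalized counts, reads per gene divided by 1 factor per library and rounded. Library totals ran from 4831007 to 4921406 in LNA Control and from 4758777 to 4762957 in LNA Malat1. The 15650 genes whose mean reached 5 entered limma on log2(normalized count + 1), and a call required both an adjusted p no higher than 0.05 and a 1.5-fold difference. The targeted Malat1 read 5051, 5197 and 4369 in LNA Control and 2833, 2792 and 2732 after knockdown, which on the log2 scale is a difference of -0.80 (SE 0.07, limma adjusted p = 7.5e-06). LNA Malat1 replicates 1 and 3 differed by less than the sampling noise (chi-square per gene 0.949 over 14522 genes, though 1.10 over the 1753 genes with at least 1600 reads) and were counted as 1 sample in each mean ± SD, which gives that group n = 2. The value for replicates 1 and 2 was 1.01 over all genes compared but 1.66 over those with at least 1600 reads, and for replicates 2 and 3 it was above the noise in both sets, at 2.02 in the second. The limma fits count all 6 libraries as separate samples, so their SE and p rest on 3 against 3. With replicates 1 and 3 as 1 sample, 831 genes rather than 1252 were called higher. Among the 3 carboxylesterase genes and the called neighbors and pathway genes described below, the calls of Terb1, Abcc2 and Nr1h3 were lost. Other called genes named here, such as Actn2 and Lrp2, were not followed in that fit. No source says that the libraries came from separate cultures, so p-values measure only the spread between these libraries. Of 11 atrial cardiomyocyte markers, 10 were listed, with summed normalized counts of 5229 to 5537 in LNA Control and 5056 to 5258 in LNA Malat1. Of 9 tested, 1 was called higher, Actn2 (log2 fold change 0.71, limma adjusted p = 0.0011), and 0 lower, beside 8.0% and 2.92% of all genes tested. Voom gave the same counts, and 3 and 2 were at an unadjusted p under 0.05 in limma. Ryr2 made up a large part of the sum, Myh6 reached at most 7 in a library, and Nppa had no value here.

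Ces2f, the middle gene of the 3, went from a few counts per library to about as many as Ces2g. With LNA Control it read 5, 3 and 2, and with LNA Malat1 93, 101 and 102. Every LNA Malat1 library was far above every LNA Control library, and the LNA Malat1 libraries lay close together. The means were 3.33 ± 1.53 (SD, n = 3) and 99.25 ± 2.47 (SD, n = 2), and the ratio of the means over all libraries was 29.6. The log2 fold change was 4.58 (SE 0.27), rank 1 of the 15650 genes tested, that is, the largest rise in this fit.

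Ces2e, which encodes an esterase also named for its cleavage of pyrethroid insecticides, read 7, 5 and 7 with LNA Control and 51, 44 and 43 with LNA Malat1. The groups did not overlap, and in LNA Malat1 the highest value was in replicate 1, where Ces2f and Ces2g had their lowest. The means were 6.33 ± 1.15 (SD, n = 3) and 45.5 ± 2.12 (SD, n = 2), and the ratio of the means over all libraries was 7.26. The log2 fold change was 2.69 (SE 0.24), rank 49 of the genes tested.

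Ces2g, the last gene of the 3, had the highest signal of them in LNA Control, with normalized counts of 27, 16 and 19. After knockdown they were 81, 106 and 98. Here too the groups stood apart, and the spread of the counts among replicates was the widest of the 3 genes, although on the log2 scale its SE was the smallest. The means were 20.7 ± 5.69 (SD, n = 3) and 97.75 ± 11.7 (SD, n = 2), and over all libraries the means had a ratio of 4.60. The log2 fold change was 2.17 (SE 0.20), rank 116 of the genes tested.

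**Figure D1:**
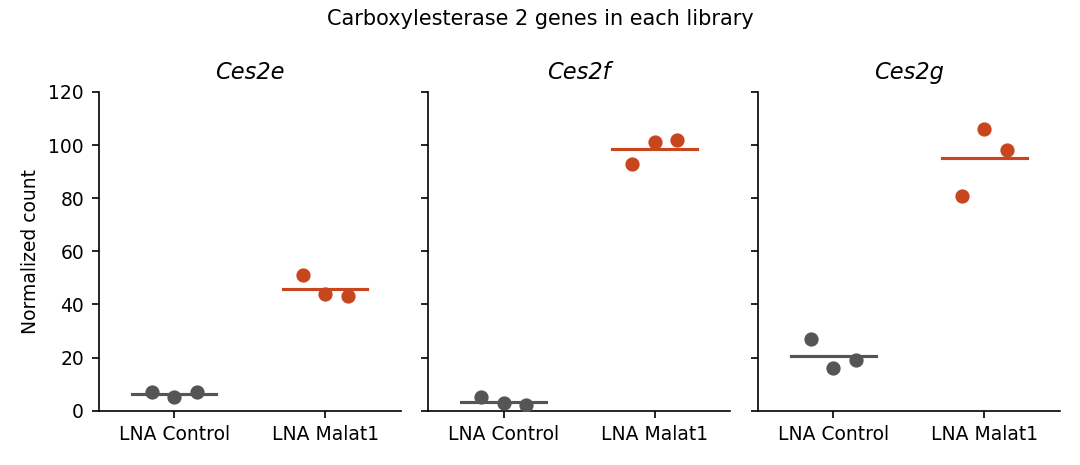
Normalized count (y axis, from 0) of Ces2e, Ces2f and Ces2g in each library, with LNA Control on the left and LNA Malat1 on the right of each panel. Points are libraries and bars are the mean of the 3 libraries. LNA Control stayed at or below 27 for all 3 genes, and LNA Malat1 lay between 43 and 106.

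All 3 genes passed the filter on low values and were called higher. The filter used the mean over all 6 libraries. Ces2f, with a mean of 3.33 in LNA Control, passed it only through its LNA Malat1 values. The share of all tested genes called higher was 8.0%, and the share with all LNA Malat1 libraries above all LNA Control libraries was 20.5%. Calls were more frequent at the level of these genes: 309 of 1770 genes (17.5%) averaging 25 to below 60 normalized counts were called higher. A log2 fold change of at least 2, which each of the 3 genes had, occurred in 1.02% of all tested genes and in 15 genes (0.847%) of that band. As the genes were chosen on this contrast, nothing is read from their count of calls. Genes with a similar fold change were Scd1, the stearoyl-CoA desaturase, for Ces2f (log2 fold change 4.30), Zfp750 for Ces2e (2.69), and Trim71 for Ces2g (2.17).

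**Figure D2:**
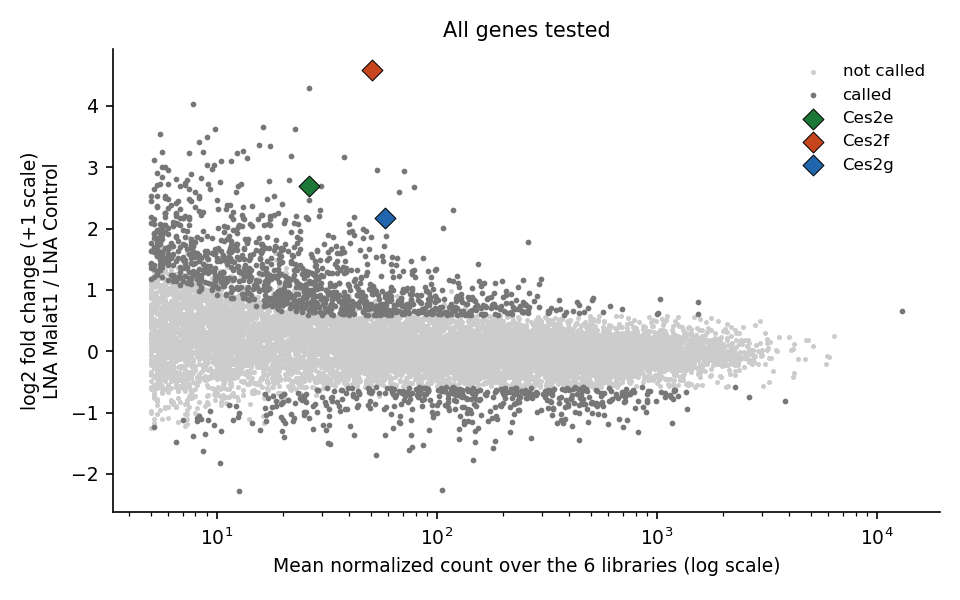
Log2 fold change of LNA Malat1 over LNA Control on the log2(normalized count + 1) scale (y axis) against the mean normalized count over the 6 libraries (x axis, log scale) for 15650 tested genes. Dark points are called genes. Ces2f has the highest value of all, 4.58, and Ces2e and Ces2g lie at 2.69 and 2.17 among genes of low to moderate level.

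The reads behind these values were few in LNA Control. Dividing out the factor of each library, which could be recovered from the gaps that rounding leaves, gave about 5, 3 and 2 reads of Ces2f with LNA Control, against 97, 102 and 114 with LNA Malat1. The ratio of the pooled reads per library size was 29.6, with an exact 95% counting interval of 15.9 to 62.4. For Ces2e, 19 reads in LNA Control stood against 145 in LNA Malat1, a ratio of 7.23 (4.46 to 12.4). For Ces2g, 62 stood against 301, a ratio of 4.60 (3.49 to 6.15). The ratios are a description of the values on which the genes were chosen. Reads are not independent molecules, so these intervals cover counting error only and leave out the spread between libraries.

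The cluster as a whole gained signal and changed in make-up. The summed normalized count of the 3 genes was 39, 24 and 28 with LNA Control and 225, 251 and 243 with LNA Malat1. Ces2g gave 66.7% to 69.2% of the sum in LNA Control and 36% to 42.2% in LNA Malat1. Ces2f gave 7.14% to 12.8% in LNA Control and 40.2% to 42.0% in LNA Malat1, so that it became as large a part as Ces2g. The share of Ces2e overlapped between the groups, at 17.9% to 25% and 17.5% to 22.7%. In bulk RNA, more cells that express a gene and more RNA of that gene per cell cannot be told apart.

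**Figure D3:**
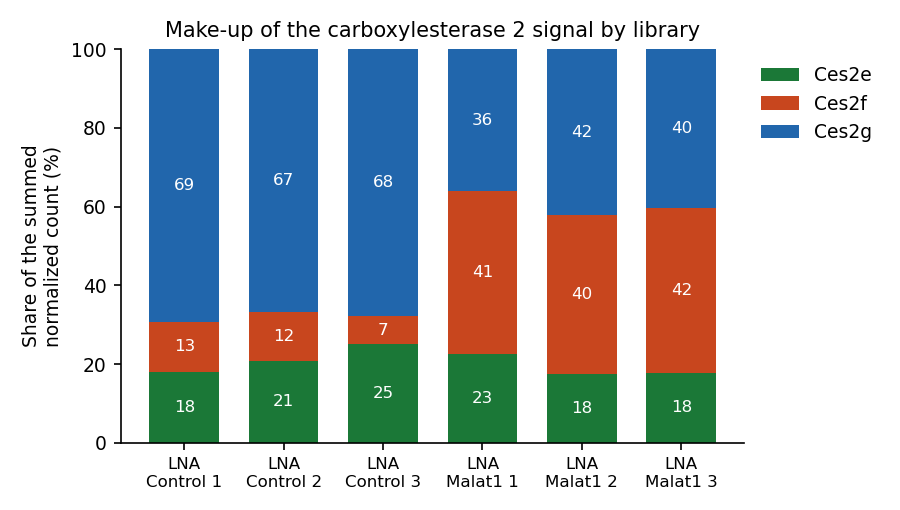
Share of each gene in the summed normalized count of Ces2e, Ces2f and Ces2g (y axis, percent) in each library (x axis). Ces2g held 66.7% to 69.2% of the sum in the LNA Control libraries, and Ces2f and Ces2g held similar shares in LNA Malat1.

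Levels were compared between the genes per kb of exon. With all annotated exons of a gene joined (2699 bases for Ces2e, 4925 for Ces2f, 3574 for Ces2g), LNA Control had 5.78 ± 1.59 normalized counts per kb for Ces2g, 2.35 ± 0.428 for Ces2e and 0.677 ± 0.310 for Ces2f (SD, n = 3), and no library of one gene overlapped those of another. In LNA Malat1 the levels were 27.4 ± 3.26 for Ces2g, 20.2 ± 0.503 for Ces2f and 16.9 ± 0.786 for Ces2e (SD, n = 2). Ces2g lay above the others in every LNA Malat1 library, while the ranges of Ces2f and Ces2e touched at 18.9.

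This order depended on the length used. The joined length of Ces2f covers 3 annotated transcripts, and its coding transcript measures 1823 bases against 2699 for Ces2e and 2859 for Ces2g. Per kb of the coding transcript, Ces2f had the highest level in LNA Malat1, 54.4 ± 1.36, followed by Ces2g with 34.2 ± 4.08 and Ces2e with 16.9 ± 0.786 (SD, n = 2), without overlap between libraries. In LNA Control, Ces2g was again highest at 7.23 ± 1.99 (SD, n = 3), and Ces2e and Ces2f overlapped. Which transcripts of Ces2f were made was not measured here. Among all genes tested, by normalized count, Ces2f went from percentile 1.55 of the LNA Control means to percentile 42.9 of the LNA Malat1 means, Ces2e from 6.96 to 31.2, and Ces2g from 23.3 to 42.2. Genes low in both groups were not tested, and Ces2f passed the filter only through LNA Malat1. Its low LNA Control percentile therefore depends on that filter and on the choice of the gene for its rise.

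Most tested genes around the cluster were not called. Within 500 kb of it, 37 other genes were listed and 32 tested, of which 5 were called higher and 0 lower, beside 8.0% and 2.92% of all genes tested. At an unadjusted p under 0.05, 8 were higher and 5 lower in limma, and limma's voom on the recovered reads called 4 higher and 0 lower. Without the fold minimum 11 passed, beside 28.3% of all genes, and the median log2 fold change of the 32 was 0.09. The nearest tested gene on the left, 1700082M22Rik, lay 268 kb away, and read 7, 10 and 6 with LNA Control against 14, 10 and 20 with LNA Malat1 (log2 fold change 0.83, limma adjusted p = 0.086). The nearest on the right, Gm3830, lay 195 kb away and read 76, 49 and 47 against 66, 59 and 57 (0.11, limma adjusted p = 0.68). Between these 2 genes also lie the paralogs Ces2a, Ces2b, Ces2c and Ces2h, the pseudogene Ces2d-ps and the carboxylesterase genes Ces3a and Ces3b. They were not analysed here. The pseudogene Matr3-ps2, 79.9 kb to the left, read 0, 1 and 1 against 3, 2 and 2, below the filter.

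The called neighbors rose less than the 3 carboxylesterase genes. Exoc3l, which encodes a protein related to an exocyst subunit, went from 12, 11 and 20 to 32, 36 and 39, which is 1.30 on the log2 scale (SE 0.25, limma adjusted p = 0.0021). Plekhg4 rose by 0.80 on the log2 scale, K230015D01Rik by 0.74, Terb1 by 0.74 and Gm33023 by 0.68. The call of Terb1 (adjusted p = 0.046) was lost in 11 of 17 alternatives, including the fit without LNA Control replicate 1 (limma adjusted p = 0.059) or 2 (0.11) and without LNA Malat1 replicate 1 (0.17) or 2 (0.15). That of Gm33023 was lost without LNA Control replicate 2 (limma adjusted p = 0.059) and without LNA Malat1 replicate 2 (0.075) or 3 (0.052). Quantile normalization also lost the call of Gm33023 (limma adjusted p = 0.098). The strand setting of the counting is not given in the sources used here, so reads of overlapping genes on opposite strands may not have been told apart.

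**Figure D4:**
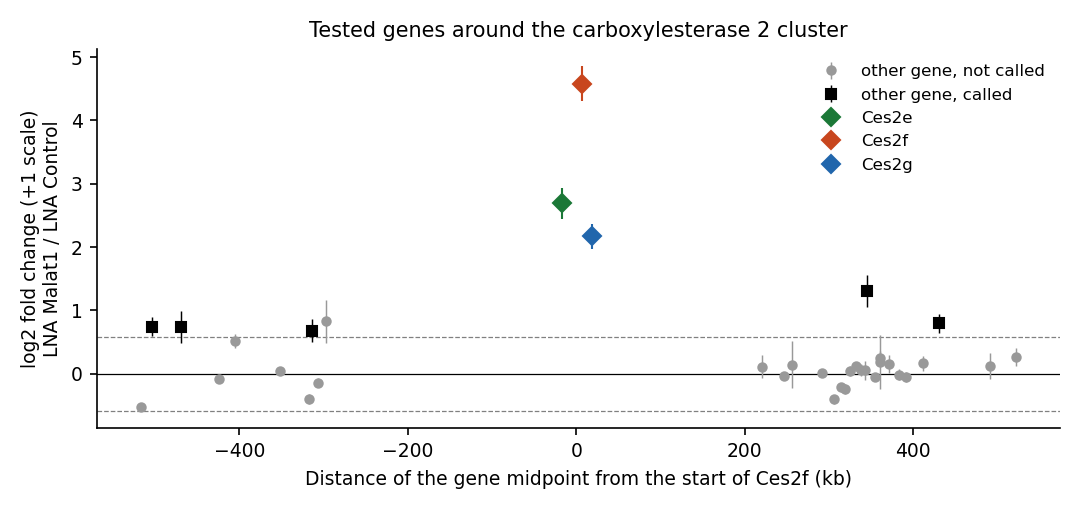
Log2 fold change of LNA Malat1 over LNA Control with its SE (y axis) for each tested gene within 500 kb of the cluster, by the distance of its midpoint from the start of Ces2f (x axis, kb). Diamonds are the 3 carboxylesterase genes, squares other called genes and circles genes not called, and dashed lines mark a fold change of 1.5. The highest other value is 1.30, for Exoc3l, against 2.17 to 4.58 in the cluster.

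Outside the second family, 12 other carboxylesterase genes were listed for comparison. Of these Ces5a had values, 1, 0 and 2 with LNA Control against 1, 0 and 0 with LNA Malat1, below the filter. The rest were not analysed here.

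Lipid ester hydrolases are enzymes that, like carboxylesterases, cleave lipid esters. Of 18 tested genes of lipid ester hydrolases and related proteins, limma called 0 higher and 2 lower, beside 8.0% and 2.92% of all genes. Without the fold minimum the counts were 0 and 8, beside 14.3% and 14.0% of all genes. At an unadjusted p under 0.05 the counts were 1 and 8, and voom called 0 and 2. Their median log2 fold change was -0.10, against 0.02 for all genes tested. Abhd6, a monoacylglycerol lipase, fell from 169, 193 and 209 to 98, 83 and 102 (log2 fold change -1.01, limma adjusted p = 2.4e-05). Lipa, the lysosomal acid lipase, fell by 0.62 on the log2 scale, a call that was lost without LNA Control replicate 1, with library totals set equal and with quantile normalization, where the fold was below 1.5. The most abundant ones not called were Lpl, lipoprotein lipase (log2 fold change -0.15), and Ddhd2, a triglyceride hydrolase (0.07).

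Of 14 tested genes of glycerolipid synthesis, limma called 1 higher and 0 lower, as did voom, beside 8.0% and 2.92% of all genes. Without the fold minimum the counts were 3 and 4, beside 14.3% and 14.0% of all genes. At an unadjusted p under 0.05 they were 4 and 5, and the median log2 fold change was 0.07. The called gene was Lpin3, a phosphatidate phosphatase, which went from 37, 27 and 49 to 80, 58 and 74 (log2 fold change 0.92, limma adjusted p = 0.0055). Soat1, which esterifies cholesterol, and Gpat4, a glycerol phosphate acyltransferase, were the most abundant not called, at -0.05 and -0.28.

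The wider set of drug and toxin metabolism genes covers conjugating enzymes, oxidases and efflux transporters. Of 22 tested, limma called 1 higher and 0 lower, as did voom, with 1 and 4 at an unadjusted p under 0.05, and the median log2 fold change was -0.09. A share this small of so few genes cannot be set apart from the 8.0% and 2.92% of all genes. The called gene was Abcc2, an efflux transporter for conjugated compounds, which went from 7, 3 and 4 to 11, 14 and 13 (log2 fold change 1.33, limma adjusted p = 0.017). Its LNA Control mean was 4.67, so Abcc2 passed the filter only through its LNA Malat1 values. The call was lost without LNA Control replicate 2 (limma adjusted p = 0.057) and without LNA Malat1 replicate 2 (0.073) or 3 (0.068), with LNA Malat1 replicates 1 and 3 as 1 sample (0.053) and with quantile normalization (0.075). Por, the electron donor of microsomal cytochrome P450 enzymes, and Abcb1b, a multidrug efflux pump, were abundant and stood at 0.06 and 0.07.

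Among 11 tested regulators of drug metabolism genes, limma called 1 higher and 1 lower, beside 8.0% and 2.92% of all genes. Without the fold minimum the counts were 2 and 2, beside 14.3% and 14.0% of all genes. Voom called 1 and 1, and the median log2 fold change was -0.06. Ppara, the fatty acid receptor that governs many lipid genes, fell from 101, 91 and 83 to 40, 51 and 40 (log2 fold change -1.06, limma adjusted p = 0.00016). Nr1h3, an oxysterol receptor, rose from 15, 27 and 20 to 42, 34 and 30 (0.77, limma adjusted p = 0.030). That call was lost without LNA Control replicate 1 (limma adjusted p = 0.072) and without any 1 of the LNA Malat1 replicates 1, 2 and 3 (0.14, 0.083 and 0.053), as well as with LNA Malat1 replicates 1 and 3 as 1 sample (0.075) and with quantile normalization (0.16). Nr1i3, the constitutive androstane receptor, was low in both groups (8, 8 and 6 against 7, 5 and 6). Arnt and Srebf1, the most abundant not called, stood at -0.03 and -0.11. The 3 KDEL receptor genes, whose products retain such enzymes, were all tested and limma called 0 of them, as did voom, with 0 at an unadjusted p under 0.05, a median of 0.01 and Kdelr2 and Kdelr1 at 0.01 and 0.12.

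Markers of the tissues rich in carboxylesterase 2 were few. Of 15 liver, intestine and kidney markers, 7 were listed, with summed normalized counts of 72 to 113 in LNA Control and 92 to 93 in LNA Malat1. Most of the sum was Vil1, at 63, 80 and 91 against 52, 54 and 52, so the sum does not show the other markers. Each other listed marker was low and had a higher mean in LNA Malat1. Apoa2 read 3, 2 and 7 against 9, 9 and 11 (log2 fold change 1.21, limma adjusted p = 0.051). With an LNA Control mean of 4, Apoa2 passed the filter only through LNA Malat1. Lgals4 read 3, 5 and 9 against 8, 9 and 10 (0.68, limma adjusted p = 0.23). Cdh17, below the filter, read 0, 0 and 1 against 3, 4 and 2. Of 4 tested, limma called 1 higher and 0 lower, beside 8.0% and 2.92% of all genes, while voom called 1 and 1. At an unadjusted p under 0.05 the counts were 2 and 1. The limma call was Lrp2, at 3, 1 and 3 against 10, 5 and 11 (log2 fold change 1.54, limma adjusted p = 0.028). Its LNA Control mean was 2.33, so it passed the filter only through its LNA Malat1 values. The call of Lrp2 was not followed through the alternatives. Vil1 stood at -0.54 (limma adjusted p = 0.015), short of the 1.5-fold minimum. The liver marker Alb was at 0, 0 and 2 with LNA Control and at 7, 5 and 4 with LNA Malat1, and the kidney marker Slc34a1 at 0, 0 and 0 and at 3, 7 and 2, both below the filter. The part of such low tissue markers in the rise of the carboxylesterase genes was not tested.

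The patterns of the 3 genes over the 6 libraries were compared with those of 12324 genes with a mean of at least 20 by Pearson's r on the log2 scale, as a description. The libraries fall into the 2 groups, so r follows the group difference first. Between Ces2f and Ces2g r was 0.988, between Ces2e and Ces2f 0.985, and between Ces2e and Ces2g 0.979. Other genes were closer to each of them than they were to one another. Ces2e was most like Wnt9a, Itpripl1, Nlrx1, Apol8 and Atg9b, Ces2f was among others like Icmt, Tug1, Trim7 and Grb10, and Ces2g was most like Mxd4, Ldhd, Tmc4, Tnfrsf23 and Cercam. An r above 0.99 was reached by 60 genes for Ces2e, 44 for Ces2f and 25 for Ces2g.

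The size of the rise depended on the processing most for Ces2f. Its log2 fold change ran from 3.65 with a pseudocount of 5 to 4.94 with a pseudocount of 0.1. Ces2e ran from 2.17 to 2.85 and Ces2g from 1.98 to 2.37 over the alternatives. With any 1 library left out, Ces2e lay between 2.55 and 2.76, Ces2f between 4.35 and 4.85, and Ces2g between 2.01 and 2.37.

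**Figure D5:**
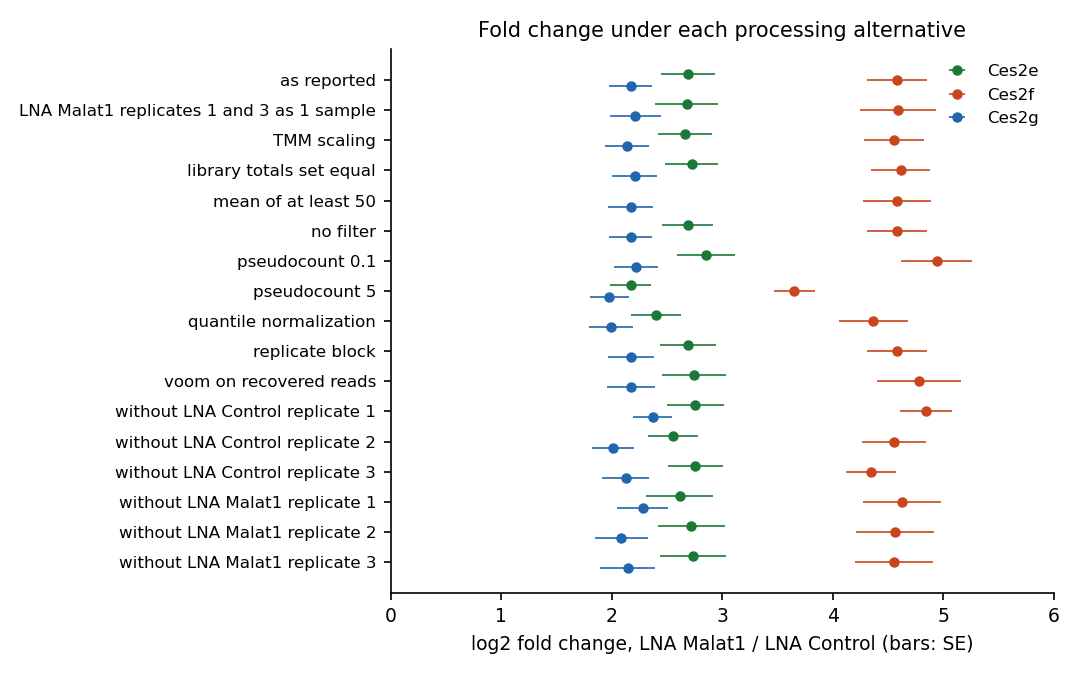
Log2 fold change of Ces2e, Ces2f and Ces2g (x axis, with SE bars) as reported and under each alternative that changes the fit (y axis). Ces2f lies between 3.65 and 4.94 in them and the order of the 3 genes is the same throughout, while Ces2e has no value at a mean of at least 50.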

How the data were processed

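RNA of 6 HL-1 libraries was sequenced with a stranded kit. By the study's methods, reads were trimmed with Trimmomatic 0.39, aligned to mm10 with STAR 2.7.7a and counted on exons with featureCounts 1.6.5, leaving out reads on several genes or regions. The values the authors deposited are treated as a score: counts divided by 1 DESeq2 (1.30.0) factor per library and rounded. Columns of the authors' own comparison were not used.

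The test was limma 3.58.1 run in R 4.3.3 on genes with a mean of at least 5 (lmFit, eBayes with trend, two-sided, Benjamini-Hochberg adjustment over 15650 genes) on log2(normalized count + 1), with groups from the sample labels. The fit was tested on simulated data. Recovered factors gave 4512253 to 5592272 reads per library and are approximate. Exons, transcripts and sequences came from GENCODE M21 and RefSeq (GRCm38.p6).

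The members and gene lists were chosen with earlier results of these data known. Named genes are the members, called and nearest neighbors, called list genes with the 2 most abundant uncalled, and the 5 genes most like each member in pattern or fold, of which only some close in fold are printed and some items are not reported here. Nr1i3 and the tissue and atrial markers printed singly were chosen after their values were seen. Alternatives changed the pseudocount, scaling, filter, fold minimum, test (voom on recovered reads), replicate block, the treatment of LNA Malat1 replicates 1 and 3, and the libraries used.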

Additional observations from a re-analysis of the deposited data

How the results depend on the processing

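Ces2e, Ces2f and Ces2g kept their direction and their calls in every alternative that tested them (Ces2e, with its mean of 26.2, is not tested at a mean of at least 50), with 3 called with any library left out. The 3 genes were chosen for a rise in these same libraries, so their calls in refits are a description and not a test. None of the 14 genes followed through the alternatives (the members and the called neighbors and list genes, without the marker lists) reversed. Genes called higher, 1252 as reported, numbered 831 with LNA Malat1 replicates 1 and 3 as 1 sample, 742 at a fold of at least 2, 317 at a mean of at least 50, 2231 without a fold minimum and 770 with quantile normalization, and 810 to 1582 with 1 library left out (810 without LNA Malat1 replicate 1, 812 without replicate 3). Genes called lower, 457 as reported, numbered 99 at a fold of at least 2, 2195 without a fold minimum and 696 with quantile normalization, and 406 to 475 with 1 library left out. Quantile normalization moved the share of calls that were higher from 73.3% to 52.5%. Neighboring genes called, 5 as reported, numbered 1 at a fold of at least 2, 1 at a mean of at least 50, 11 without a fold minimum and 3 with quantile normalization, and 3 to 5 with 1 library left out (3 without LNA Control replicate 2 or LNA Malat1 replicate 2). Pathway genes called, 6 as reported, numbered 3 at a fold of at least 2 and 22 without a fold minimum, and 4 to 6 with 1 library left out. The cause of these shifts was not tested beyond the thresholds themselves.

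A replicate block gave 1297 genes called higher and 442 lower, and the members' log2 fold changes were 2.69, 4.58 and 2.17. Same-numbered libraries correlated by only 0.086, 0.182 and 0.083 in their deviations over 10490 genes, so the numbers are not read as a pairing. Depth limits the LNA Control values of Ces2e and Ces2f, which rest on 19 and 10 reads.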
